A study of Mus musculus with 3 samples.

Results

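The core genes of the circadian clock were followed through single cells of the arcuate nucleus, a feeding centre at the base of the mouse hypothalamus. The members were the 10 genes Arntl, Clock, Per1, Per2, Per3, Cry1, Cry2, Nr1d1, Dbp and Nfil3, found by their symbols among the 31253 genes of each matrix, and all 10 were present. The mice were male C57BL/6JRj, 5 to 6 weeks old, housed in groups under 12 h of light and 12 h of dark. From weaning they ate standard chow (SC) for 15 days, 10 days of chow and then 5 days of a 58% high-fat high-sugar food (HFHS), or HFHS throughout the 15 days. Tissue was micropunched and the punches of 6 mice of a diet were pooled and dissociated, so there were 3 libraries, 1 per diet, and the difference between 2 diets is a difference between 2 pools. The hour of the day of collection of each pool is not stated in the labels. Values are given in the order SC, 5-day and 15-day unless stated.

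The clock is a feedback loop of transcription. Arntl (also called Bmal1) and Clock code for the paired activators that bind E-box sequences and switch on the Per, Cry, Nr1d1 and Dbp genes; Per and Cry proteins then block the pair, and the nuclear receptor coded by Nr1d1 (REV-ERB alpha) represses Arntl, Cry1 and Nfil3 through RRE sequences. Dbp activates and Nfil3 represses D-box sequences. Dbp, Nr1d1 and the Per genes thus tend to run high at a time of day when Arntl and Nfil3 run low, and the reverse. For the comparisons below Dbp, Nr1d1, Per1, Per2 and Per3 formed the first set, Arntl, Clock, Cry1 and Nfil3 the second, and Cry2, which cycles weakly in most tissues, neither. Clock and Cry1 were placed in the second set by choice, and no phase was measured here.

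On GRCm38 the activators lie at chr7:113207465-113314126 (Arntl) and chr5:76209868-76304792 (Clock). The repressor genes lie at chr11:69095217-69109960 (Per1), chr1:91415982-91459324 (Per2), chr4:151003652-151044665 (Per3), chr10:85131700-85185064 (Cry1) and chr2:92403646-92434043 (Cry2). Nr1d1 lies at chr11:98767932-98775333, Dbp at chr7:45705088-45710203 and Nfil3 at chr13:52967209-52981073. The start-site windows of the members show which of these 3 sequences lie next to their transcription starts. RefSeq start-site windows on GRCm38.p6, 250 bases before to 50 after each start, were held for 9 members (13 windows). The letters searched on both strands were CACGTG for the E-box, TTATGNAA or TTNCATAA for the D-box, and TAGGTCA or TGACCTA for the RRE, and none of these motifs holds another. Of all 32851 windows, 7.15% held the E-box, 3.39% the D-box and 2.61% the RRE. The 5 windows with a match are printed 5′ to 3′ on the gene's strand, with matches in capitals. Those of Per1 (chr11:69098699-69098998, plus strand) and Cry1 (chr10:85185005-85185304, minus strand) held an E-box.
Per1: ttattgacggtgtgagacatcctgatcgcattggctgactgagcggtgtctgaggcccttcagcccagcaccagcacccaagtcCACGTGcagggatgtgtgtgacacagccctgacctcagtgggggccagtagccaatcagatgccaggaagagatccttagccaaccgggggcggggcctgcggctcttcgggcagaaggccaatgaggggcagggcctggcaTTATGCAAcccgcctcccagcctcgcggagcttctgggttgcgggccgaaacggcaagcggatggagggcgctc
Cry1: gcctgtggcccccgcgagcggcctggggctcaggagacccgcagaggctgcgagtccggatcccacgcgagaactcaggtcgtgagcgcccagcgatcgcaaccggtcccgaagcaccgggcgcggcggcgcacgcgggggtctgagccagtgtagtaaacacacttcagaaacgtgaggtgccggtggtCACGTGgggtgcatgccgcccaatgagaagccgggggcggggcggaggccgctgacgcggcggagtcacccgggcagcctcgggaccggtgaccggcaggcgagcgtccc
The Per1 window also held a D-box, and the Per3 window (chr4:151044616-151044915, minus strand) held it at 2 places.
Per3: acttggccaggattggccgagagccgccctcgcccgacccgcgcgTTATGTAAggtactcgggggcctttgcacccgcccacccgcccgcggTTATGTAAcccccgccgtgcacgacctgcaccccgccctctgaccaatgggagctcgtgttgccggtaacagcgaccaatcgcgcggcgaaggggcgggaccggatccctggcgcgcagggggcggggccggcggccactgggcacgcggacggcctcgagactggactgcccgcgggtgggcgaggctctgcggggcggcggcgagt
The RRE was in 1 of the windows of Arntl (chr7:113207261-113207560, plus strand), after the start, and in that of Nfil3 (chr13:52980990-52981289, minus strand).
Arntl: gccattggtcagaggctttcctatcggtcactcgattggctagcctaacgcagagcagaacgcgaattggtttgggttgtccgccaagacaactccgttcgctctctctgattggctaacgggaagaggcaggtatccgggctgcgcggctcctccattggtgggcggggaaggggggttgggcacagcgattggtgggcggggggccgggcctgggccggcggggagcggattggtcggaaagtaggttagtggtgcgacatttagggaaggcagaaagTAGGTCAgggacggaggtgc
Nfil3: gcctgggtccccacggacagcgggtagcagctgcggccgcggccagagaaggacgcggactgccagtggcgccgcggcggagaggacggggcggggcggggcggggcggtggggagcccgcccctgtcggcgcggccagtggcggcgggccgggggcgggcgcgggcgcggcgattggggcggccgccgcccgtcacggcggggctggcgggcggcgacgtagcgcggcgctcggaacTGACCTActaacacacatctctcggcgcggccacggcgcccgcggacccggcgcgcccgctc
The windows of Clock, Cry2, Nr1d1 and Dbp held none of the 3 sets of letters, which says only that these letters are not in those bases. A match describes the sequence and is not a measured binding site. Per2 is described by its transcripts only.

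The libraries held 7116, 6204 and 7823 barcodes, of which 4825, 4041 and 5157 cells were kept, with median depths of 5131, 5779 and 4130 UMIs. A UMI (unique molecular identifier) marks 1 captured transcript molecule. Clustering without the clock genes gave 10 classes that reached 100 cells in every library, called by marker genes astrocyte-like, tanycyte-like, ependymal-like, microglia-like, endothelial-like, pericyte-like, oligodendrocyte precursor-like (OPC-like), committed precursor-like (COP-like), oligodendrocyte-like and neuron-like; they held 13320 cells. The COP-like class joined a cluster of 177 cells led by Bmp4 and Gpr17 with a larger one of 255 cells led by 9630013A20Rik. The larger cluster had Enpp6 and the oligodendrocyte marker Mag among its leading genes, so the class may reach past committed precursors. Markers of the arcuate nucleus led neuron-like clusters (Npy and Agrp in one, Cartpt in another), which is the labelled tissue. Between the kept cells, 2, 22 and 23 barcodes were shared by the SC and 5-day, SC and 15-day, and 5-day and 15-day libraries. Pituitary markers stood apart in the 15-day library: Cga, the glycoprotein hormone alpha subunit, had 0, 0 and 3728 UMIs in the compared classes, and Tshb 39, 29 and 344. Their part in the clock gene values was not tested. The UMIs of a gene in a class and library were divided by all UMIs there and scaled to CPM (counts per 1000000), and a class average gave the 10 classes equal weight. Brackets hold 95% intervals of counting error only, which leave out the spread between cells, mice and preparations; since each diet had a single library, diets could not be tested against each other and no p-value is given.

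Astrocyte-like cells had the highest CPM for 6 of the 10 members, by the mean over the 3 libraries: Arntl, Per1, Per2, Per3, Cry2 and Nr1d1. For Per2, Per3 and Cry2 the lowest astrocyte-like library was above the highest library of the next class. Clock was highest in neuron-like cells, Dbp and Cry1 in ependymal-like cells and Nfil3 in COP-like cells. Oligodendrocyte-like cells were lowest for Arntl, Per2, Per3 and Nr1d1. These levels describe 1 gene across classes, since CPM of different genes were not compared.

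Among the activators, Arntl had 53.9, 45.8 and 43.9 CPM in astrocyte-like cells, against 7.31, 5.24 and 5.84 CPM in oligodendrocyte-like cells. The astrocyte-like range overlapped that of pericyte-like cells, the next class, which had 45.6, 36.1 and 33.4 CPM. Clock had 145.7, 118.1 and 110.3 CPM in neuron-like cells. The lowest of these was above the highest OPC-like library, the next class at 88.5, 84.8 and 84.4 CPM, and microglia-like cells were lowest at 32.4, 31.7 and 32.4 CPM. The mean level of the top class was 7.81 times that of the lowest class for Arntl and 3.88 times for Clock.

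Among the repressor genes, the top class was 52.9 times the lowest for Per2, 27.3 times for Cry2, 15.5 times for Per3 and 5.39 times for Per1. Per2, a period gene needed for a stable rhythm, had 37.1, 28.4 and 31.8 CPM in astrocyte-like cells and 23.3, 16.4 and 14.4 CPM in neuron-like cells, but 0.677, 0.327 and 0.835 CPM in oligodendrocyte-like cells, where the counts were 5, 2 and 4 UMIs. Per3 had 192.5, 174.9 and 227.1 CPM in astrocyte-like cells and 132.0, 97.7 and 98.7 CPM in neuron-like cells. Cry2 had 144.5, 129.1 and 138.9 CPM in astrocyte-like cells, followed by tanycyte-like cells (80.3, 90.2 and 80.6 CPM), and 5.59, 6.00 and 3.55 CPM in endothelial-like cells. Per1, which also responds to acute stimuli, was spread more evenly. Its astrocyte-like level of 48.4, 44.7 and 43.7 CPM overlapped the endothelial-like level of 41.3, 46.5 and 44.9 CPM. Cry1 had the smallest spread between classes among the repressors, 4.05 times, at 26.7, 24.5 and 23.5 CPM in ependymal-like cells and 8.24, 5.76 and 4.44 CPM in microglia-like cells.

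Nr1d1 was high in astrocyte-like cells (117.2, 122.3 and 136.8 CPM) and in pericyte-like cells (103.9, 119.1 and 116.8 CPM), 2 classes whose ranges overlapped. It was lowest in oligodendrocyte-like cells, at 2.98, 4.09 and 4.80 CPM. Dbp, the output activator, was high in ependymal-like cells (85.1, 90.5 and 102.4 CPM), astrocyte-like cells (65.2, 94.4 and 105.8 CPM) and tanycyte-like cells (79.4, 89.2 and 96.6 CPM). These ranges overlapped, while COP-like cells had 10.4, 13.1 and 11.8 CPM. Nfil3, the repressor opposed to Dbp at D-box sequences, was highest in COP-like cells (30.3, 15.3 and 17.1 CPM), then oligodendrocyte-like cells (11.5, 10.8 and 12.7 CPM). Within the COP-like class Nfil3 had 26.6, 21.3 and 17.1 CPM in the Bmp4-led cluster and 33.5, 10.1 and 17.1 CPM in the larger cluster. Nfil3 was lowest in astrocyte-like cells, with 1, 3 and 5 UMIs.

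**Figure D1:**
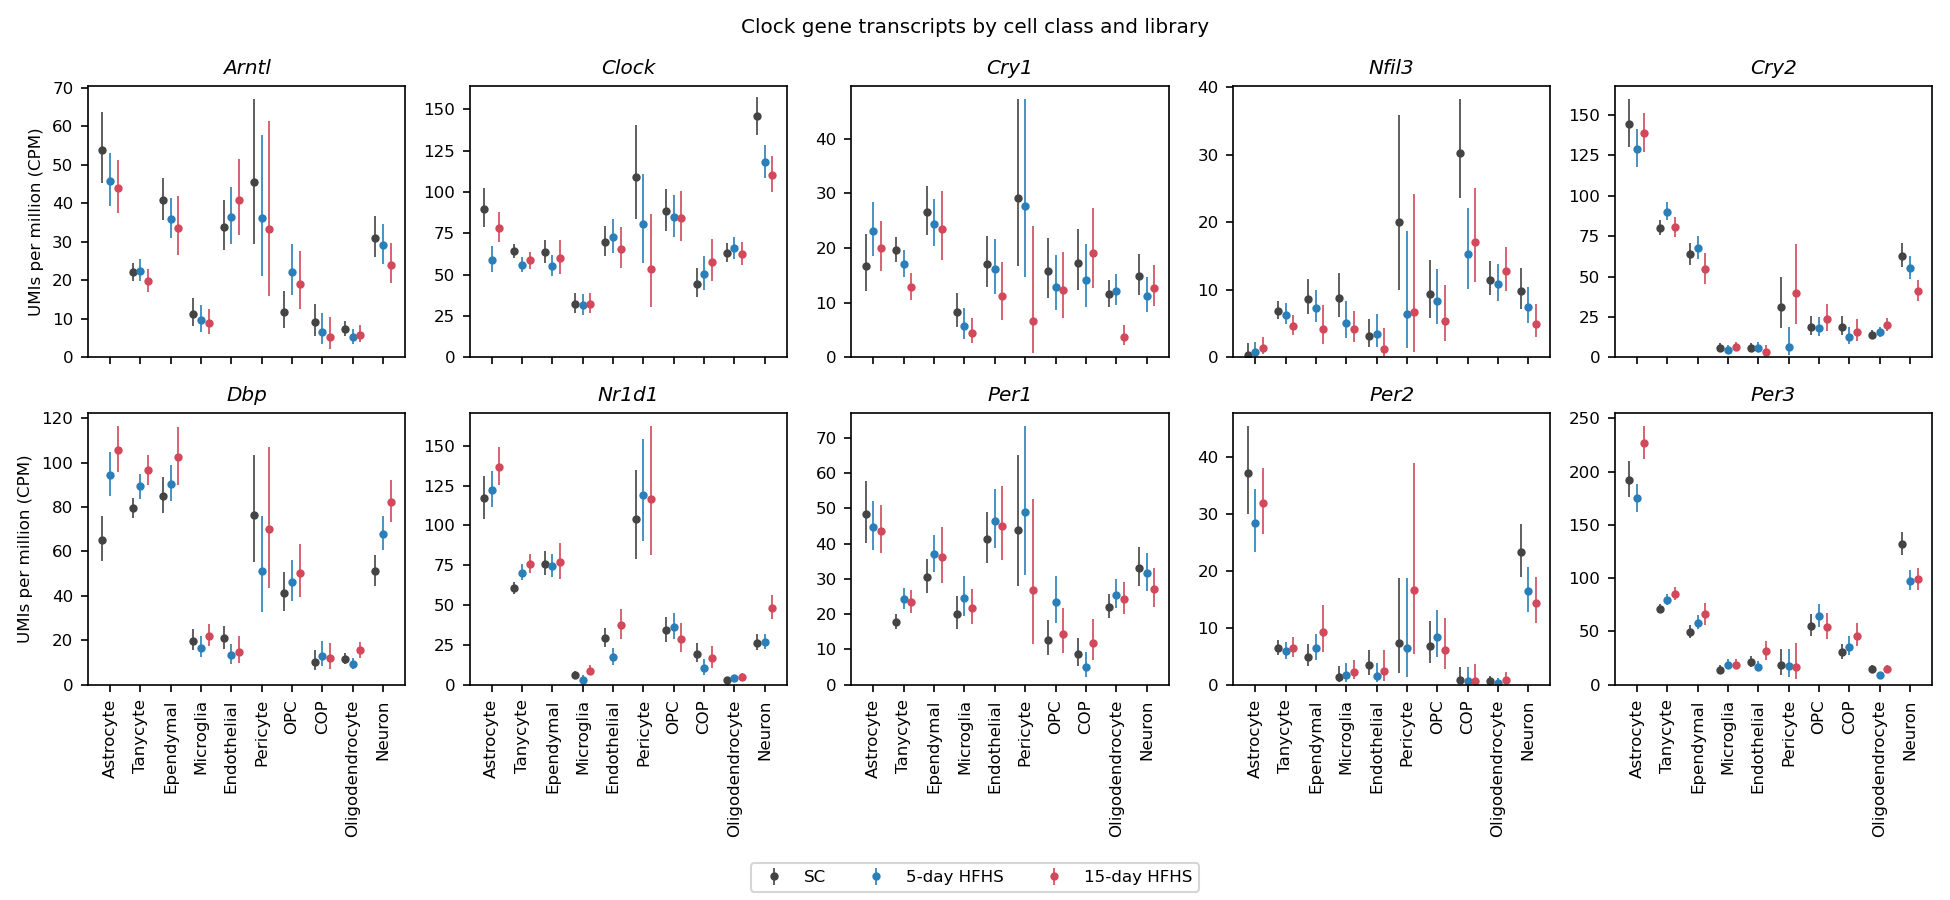
CPM of each clock gene (y axis, from 0) in the 10 cell classes (x axis) of the SC, 5-day and 15-day HFHS libraries, 1 point per library with its 95% Poisson interval. Per3, Cry2 and Per2 peak in astrocyte-like cells, Clock in neuron-like cells and Nfil3 in COP-like cells, in each of the 3 libraries.

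Between libraries, the first comparison asked whether the clock genes of the 5-day pool differed from those of the SC pool once each class had equal weight. A gene was called when the higher level was at least 25% above the lower, with a 95% interval excluding 1 and at least 50 UMIs in both libraries together. Nfil3 was the 1 member called, at 10.9 CPM in SC and 7.10 in the 5-day library (log2 ratio -0.62 [-0.93 to -0.31]). Of all 15783 genes tested, 3.3% were called lower, 2.26% higher and 5.56% either way, so 1 of 10 members is near the background. Higher calls were 40.7% of all calls, and 57.1% under TMM or 56.7% under median-of-ratios scaling. The median log2 ratio was -0.10 over the members and -0.02 over all genes. Clock was lower without reaching the fold (77.2 and 67.4 CPM, -0.19 [-0.30 to -0.09]), and the other 8 members lay between -0.28 for Per2 and 0.16 for Per1.

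In the 15-day library against SC, the first set had 3 ratios above 1 and 2 below. The second set had 0 above and 4 below. Nfil3 was lower at 6.24 CPM (-0.80 [-1.17 to -0.43]) and Cry1, the late repressor, was lower at 12.7 against 17.7 CPM (-0.48 [-0.73 to -0.24], but -0.17 with cells thinned to 1000 UMIs, under the fold limit). These were the 2 members called, both lower, beside 7.03% of 15654 genes called lower, 4.74% higher and 11.8% either way (40.3% of calls higher, and 51.8% or 54.4% under those other scalings). Dbp was higher at 57.1 against 46.1 CPM (0.31 [0.17 to 0.45]), a ratio of 1.24 just under the limit, and passed it under the 2 other scalings. Nr1d1 was higher by less (55.1 against 47.6 CPM, 0.21 [0.06 to 0.37]), as was Per3 (65.7 against 59.9 CPM, 0.13 [0.04 to 0.23]). Arntl was at 23.5 against 26.7 CPM (-0.18 [-0.39 to 0.03]) and Clock at 66.3 against 77.2 CPM (-0.22 [-0.33 to -0.10]). Per1, Per2 and Cry2 had intervals that held 0, at -0.02, -0.02 and -0.07. The 5-day and 15-day ratios share the SC pool, here and below.

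The 15-day and 5-day libraries, compared directly, differed in Cry1 alone by the rule (12.7 against 16.5 CPM, -0.38 [-0.63 to -0.13], and under the fold limit at -0.31 with a fixed mix of clusters or with classes weighted by their cells), beside 5.35% of 15584 genes called lower, 4.79% higher and 10.1% either way. Dbp (0.22 [0.09 to 0.35]), Nr1d1 (0.19 [0.03 to 0.35]) and Per3 (0.20 [0.10 to 0.30]) were higher at 15 days, under the fold limit. Per1 was lower (-0.19 [-0.37 to -0.00205]).

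**Figure D2:**
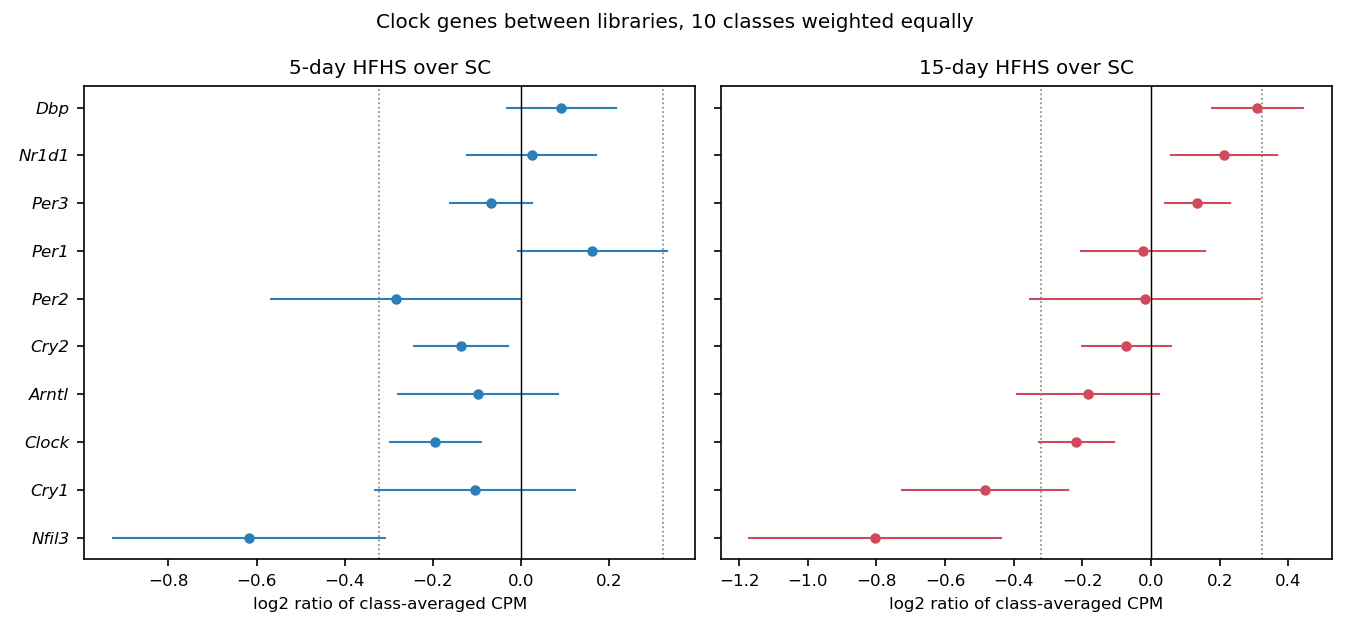
Log2 ratio of class-averaged CPM (x axis) of each clock gene against SC for the 5-day (left) and 15-day (right) HFHS libraries, with 95% counting intervals; dotted lines mark a level 25% above the other. At 15 days Dbp, Nr1d1 and Per3 lie right of 0 and Cry1 and Nfil3 lie left of the limit.

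A contrast of the opposed sets cancels any scale factor that all genes of a library share. The mean log2 ratio of the first set minus that of the second was 0.24 [0.10 to 0.37] for the 5-day library over SC. It was 0.55 [0.39 to 0.70] for the 15-day library over SC, where the first set averaged 0.12 and the second -0.42. For the 15-day over the 5-day library it was 0.31 [0.15 to 0.47]. The 3 values share libraries and the third is the difference of the others. Without Nfil3, the sparsest member in several classes, they were 0.12, 0.42 and 0.30. Without the cells whose barcode was also in another library they were 0.23, 0.56 and 0.33. The interval covers counting only, and the spread of this contrast between pools of mice on 1 diet is not known from 1 pool per diet.

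Within classes, the 15-day contrast over SC was above 0 in 9 of 10 classes, with an interval above 0 in 6. It was 0.62 [0.42 to 0.83] in tanycyte-like, 0.77 [0.42 to 1.13] in ependymal-like, 0.97 [0.43 to 1.51] in microglia-like, 0.75 [0.23 to 1.27] in oligodendrocyte-like and 0.53 [0.22 to 0.83] in neuron-like cells. The fewest UMIs of a gene in a library were 5 in microglia-like and 4 in oligodendrocyte-like cells. The oligodendrocyte-like value included a Cry1 ratio of -1.62. In neuron-like cells the first set did not move as 1: Dbp (0.68) and Nr1d1 (0.88) were higher, while Per1 (-0.29), Per2 (-0.69) and Per3 (-0.42) were lower. Without Nfil3 the neuron-like contrast was 0.36 [0.09 to 0.64]. Pericyte-like cells had 1.38 [0.37 to 2.39] with as few as 2 UMIs for a gene. Astrocyte-like cells had -0.22 [-1.02 to 0.58], a value that rests on the 1 and 5 Nfil3 UMIs of SC and the 15-day library, and 0.24 [-0.02 to 0.50] without Nfil3. The 5-day contrast was above 0 in 7 of 10 classes with an interval above 0 in 2, tanycyte-like (0.29 [0.11 to 0.48]) and ependymal-like cells (0.38 [0.12 to 0.65]). In endothelial-like cells it was below 0 (-0.61 [-1.15 to -0.07]), with as few as 4 UMIs for a gene.

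**Figure D3:**
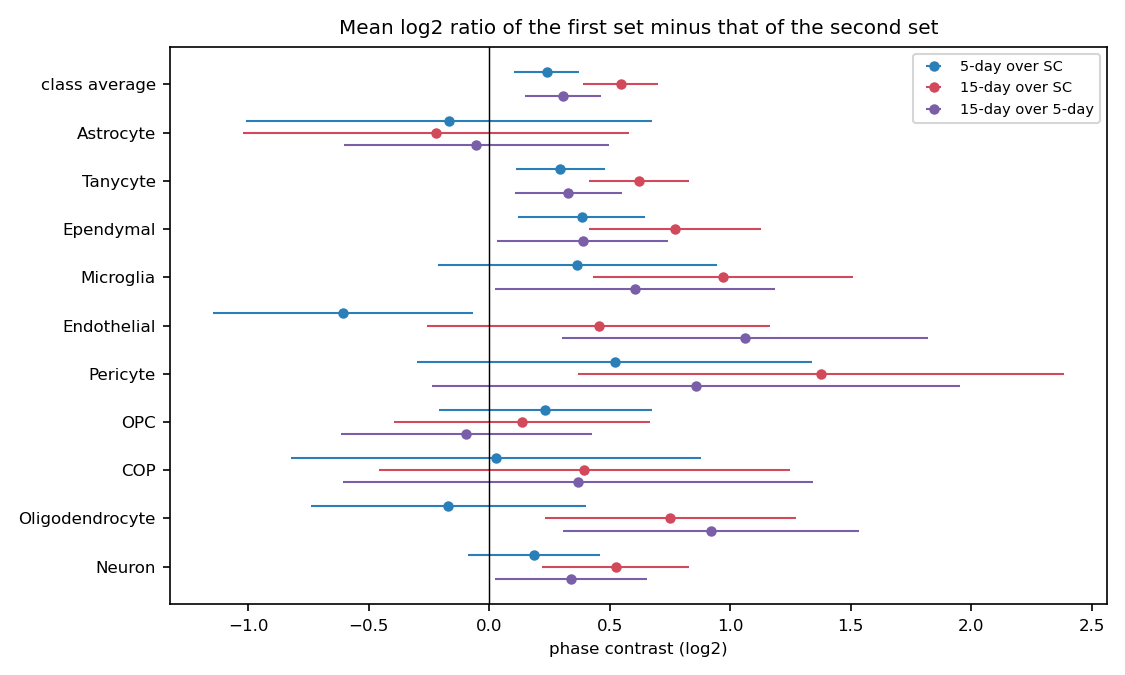
Mean log2 ratio of Dbp, Nr1d1, Per1, Per2 and Per3 minus that of Arntl, Clock, Cry1 and Nfil3 (x axis) for the class average and each class (y axis), for the 3 pairs of libraries, with 95% counting intervals. The 15-day values over SC lie right of 0 in all classes but astrocyte-like cells, and the 5-day endothelial-like value lies left of it.

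The ratio of Dbp to Arntl UMIs gives the same opposition inside 1 library, read only for its change between libraries. Over the 10 classes together it was 2.21 [2.05 to 2.37], 2.47 [2.29 to 2.66] and 3.04 [2.79 to 3.32]. The 15-day interval lay above both others. Nr1d1 to Arntl went 1.87 [1.73 to 2.01], 2.03 [1.88 to 2.20] and 2.58 [2.36 to 2.82], and Per3 to Arntl 2.59, 2.71 and 3.61. By class, Dbp to Arntl was ordered SC, 5-day, 15-day in 6 of 10 classes. In astrocyte-like cells it was 1.21 [0.96 to 1.53], 2.06 [1.72 to 2.49] and 2.41 [2.00 to 2.90], with SC apart from both HFHS libraries. Tanycyte-like cells had 3.60, 3.97 and 4.88, and neuron-like cells 1.65, 2.33 and 3.41. It was highest in SC in 2 classes: OPC-like cells had 3.54, 2.08 and 2.64, and endothelial-like cells went from 0.615 [0.447 to 0.841] in SC to 0.361 [0.238 to 0.536] and 0.362 [0.22 to 0.58].

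**Figure D4:**
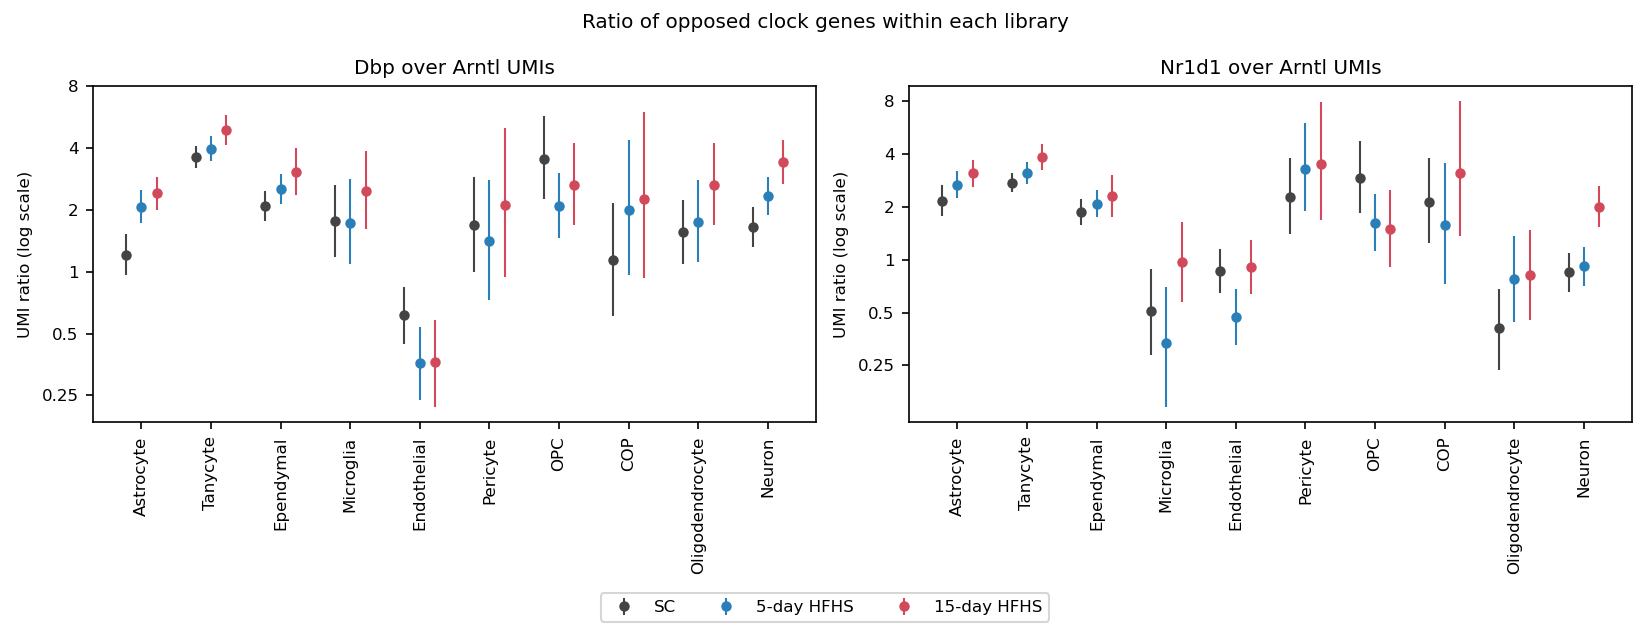
Ratio of Dbp to Arntl UMIs (left) and of Nr1d1 to Arntl UMIs (right) on a log y axis, by cell class and library, with exact 95% intervals. Neuron-like and tanycyte-like cells are highest in the 15-day library in both panels, and the endothelial-like Dbp to Arntl ratio is highest in SC.

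Dbp was called higher against SC in 2 classes, astrocyte-like and neuron-like cells, in both HFHS libraries. In astrocyte-like cells it had 65.2 [55.7 to 75.9], 94.4 [84.9 to 104.7] and 105.8 [95.7 to 116.7] CPM, so that both HFHS libraries lay above SC (log2 ratios 0.53 and 0.70). Astrocyte-like background was 6.43% of genes higher at 5 days and 4.43% at 15 days. In neuron-like cells it had 51.1, 67.9 and 82.1 CPM (0.41 [0.16 to 0.67] and 0.68 [0.43 to 0.94]), the 5-day ratio falling to 0.20 at no more than 10% mitochondrial UMIs. In endothelial-like cells it was called lower at 5 days (20.8 and 13.1 CPM, -0.66 [-1.30 to -0.05]), from 67 and 35 UMIs, and was 0.31 when every cell had equal weight. Of 9 classes with enough UMIs at 15 days, 7 had a Dbp ratio above 1 and 2 below.

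Nr1d1 was called higher at 15 days over SC in tanycyte-like cells (60.7, 70.3 and 76.0 CPM, 0.32 [0.18 to 0.47], but -0.17 with cells thinned to 1000 UMIs) and neuron-like cells (26.2, 26.7 and 48.4 CPM, 0.88 [0.54 to 1.24], but 0.31 with a fixed mix of clusters). The neuron-like level of the 15-day library was above the close values of the other two. At 5 days it was called lower in endothelial-like cells (29.2 and 17.3 CPM, -0.76 [-1.30 to -0.23], but 1.11 with thinned cells) and in COP-like cells (19.5 and 10.4 CPM, -0.91 [-1.77 to -0.11]). Thinning made 1 random draw of 1000 UMIs per cell, here from 300 SC and 278 5-day endothelial-like cells. Thinned values of scarce genes rest on few UMIs and have no interval, here and below. The Nr1d1 ratio was above 1 in 7 of 9 classes tested at 15 days. Nr1d1 overlaps exons of Thra on the opposite strand, as Dbp overlaps Sphk2, Cry2 overlaps D930015M05Rik and Arntl overlaps Gm45355; whether counting used the strand is not stated, so reads of such partners may be mixed. Thra, the thyroid hormone receptor alpha gene, had a class average of 426, 404 and 400.4 CPM. Reads of the overlapping exons were not counted apart, and their part in the Nr1d1 values was not tested.

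Per1 was called higher in tanycyte-like cells in both HFHS libraries, at 17.9, 24.2 and 23.4 CPM (0.44 [0.19 to 0.69] and 0.39 [0.12 to 0.66]), the 15-day ratio falling to 0.26 with equal cell weights. It was also called higher in OPC-like cells at 5 days (12.6 and 23.5 CPM, 0.90 [0.21 to 1.62]), where Arntl was higher too (11.7 and 22.1 CPM, 0.92 [0.20 to 1.67]); 2 of 8 members tested there were called higher, beside 2.47% of genes higher and 2.97% lower. Per3 moved in opposite directions by class at 15 days. It was called higher in ependymal-like (49.4 and 65.9 CPM, but a ratio of 0.21 with a fixed mix of clusters), endothelial-like (21.4 and 31.3 CPM) and COP-like cells (30.3 and 46.0 CPM) and lower in neuron-like cells (132.0 and 98.7 CPM, -0.42 [-0.61 to -0.23], and 0.01 with every cell weighted equally); the difference between classes was not tested. Per2 was called lower in neuron-like cells in both HFHS libraries (23.3, 16.4 and 14.4 CPM, -0.51 and -0.69), the 5-day ratio turning to 0.20 with a fixed mix of neuron-like clusters and the 15-day ratio falling to -0.05 with thinned cells.

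Cry1 was called lower at 15 days in tanycyte-like cells (19.6, 17.1 and 12.9 CPM, -0.61 [-0.94 to -0.29]) and oligodendrocyte-like cells (11.5, 12.1 and 3.76 CPM, -1.62 [-2.44 to -0.87]). The oligodendrocyte-like counts were 85, 74 and 18 UMIs. Cry2 was called lower in neuron-like cells at 15 days (63.0, 55.4 and 40.9 CPM, -0.62 [-0.92 to -0.33]) and higher in oligodendrocyte-like cells (14.1 and 19.8 CPM, 0.49 [0.08 to 0.91], but 0.12 with thinned cells). Nfil3 was called lower at 15 days in tanycyte-like (6.87 and 4.63 CPM), ependymal-like (8.70 and 4.2 CPM), COP-like (30.3 and 17.1 CPM) and neuron-like cells (9.81 and 4.98 CPM), from 18 to 105 UMIs a library but 10 in the 15-day ependymal-like sum. The tanycyte-like ratio of -0.57 turned to 0.32 with equal cell weights and 0.07 with thinned cells, and the ependymal-like ratio of -1.05 to 0.06 with a fixed mix of clusters. The neuron-like ratio of -0.98 was -0.05 with thinned cells. Clock was called lower in astrocyte-like cells at 5 days (89.8 and 58.9 CPM, -0.61 [-0.88 to -0.34]) but not at 15 days (78.4 CPM), and in neuron-like and pericyte-like cells at 15 days.

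Counted by class at 15 days over SC, neuron-like cells had 2 of 10 members called higher and 5 lower, beside 11.4% of genes higher and 29.8% lower. Tanycyte-like cells had 2 higher and 2 lower of 10, beside 6.91% and 6.36%. Astrocyte-like cells had 1 higher and 0 lower of 9, beside 4.43% and 3.65%. Ependymal-like cells had 1 each way of 9 (6.59% and 6.76%), oligodendrocyte-like cells 1 each way of 8 (5.47% and 7.02%) and COP-like cells 1 each way of 6 (6.62% and 7.66%). Endothelial-like cells had 1 higher of 7 (4.86% higher, 8.1% lower) and pericyte-like cells 1 lower of 3 (4.28% higher, 6.97% lower). No member was called in microglia-like cells, with 6 tested (3.64% and 8.47%), or in OPC-like cells, with 7 tested (4.11% and 8.36%). At 5 days over SC, neuron-like cells had 1 higher and 2 lower of 10 (9.31% and 21%), astrocyte-like cells 1 each way of 9 (6.43% and 9.83%) and tanycyte-like cells 1 higher of 10 (2.58% and 1.47%). Endothelial-like cells had 2 lower of 7 (2.85% and 3.01%), COP-like cells 2 lower of 6 (3.95% and 4.99%) and oligodendrocyte-like cells 1 lower of 8 (2.29% and 4.12%). No member was called at 5 days in ependymal-like (3.34% and 2.8%), microglia-like (2.81% and 2.85%) or pericyte-like cells (2.07% and 3.53%).

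Between the 15-day and 5-day libraries, astrocyte-like cells had 2 members called higher, Clock (0.41) and Per3 (0.38), beside 8.96% of genes; both fell under the fold limit with a fixed mix of clusters (0.28 and 0.25). Endothelial-like cells had 2 higher, Per3 (0.89, but 0.24 without doublet removal) and Nr1d1 (1.11), beside 4.56%. In oligodendrocyte-like cells Dbp (0.75) and Per3 (0.63, but -0.72 with thinned cells) were higher beside 6.38%, and Cry1 (-1.69) lower beside 6.4%. Cry1 was lower in tanycyte-like cells (-0.41 beside 6.87%, but 0.15 with equal cell weights and 0.83 with thinned cells). In neuron-like cells Nr1d1 was higher (0.86 beside 5.27%, but -0.01 with equal weights and -0.49 with a fixed mix of clusters) and Cry2 lower (-0.44 beside 9.01%, but -0.16 at no more than 10% mitochondrial UMIs).

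The neuron-like class was a mix of 5 clusters whose shares differed between libraries. The cluster led by Snhg11, a long noncoding RNA of neurons, held 67.9%, 43.4% and 39.0% of neuron-like UMIs, and the cluster led by Npy, which marks neurons that stimulate feeding, held 4.43%, 30.3% and 19.9%. Clock, Per3 and Cry2 were highest in the Snhg11-led cluster among the 3 clusters with most UMIs. Inside it Clock had 178, 177 and 148 CPM, Per3 166.8, 146.3 and 141 CPM and Cry2 80.2, 84.7 and 58.8 CPM. The fixed mix gave each cluster 1 share, by cells, in all libraries, using only clusters with at least 20 cells in every library. The Npy-led cluster (6, 32 and 32 cells) and a cluster led by Avp (2, 2 and 17 cells) were thus left out. A sparse Pcp4-led cluster was kept, with 1, 6 and 0 Nr1d1 UMIs and 0, 1 and 0 Per2 UMIs. With a fixed mix of clusters the 15-day log2 ratio was -0.28 for Clock, -0.22 for Per3 and -0.53 for Cry2, against -0.40, -0.42 and -0.62 as summed. For Nr1d1 it was 0.31 against 0.88. Clock, Per3 and Nr1d1 thus fell under the fold limit with the mix fixed, and Cry2 did not. Clock and Per3 also fell under it with TMM scaling, at -0.19 and -0.21.

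Among neuron-like cells, 21 cells led by Avp, the gene of vasopressin, stood apart in clock gene level, although the clock genes had no part in the clustering. Dbp had 545.7 CPM there from 129 UMIs in 18 of 21 cells, 9.60 times the 56.8 CPM of the other 1015 neuron-like cells. Nr1d1 had 283.4 CPM from 67 UMIs, 10.1 times the 28.0 CPM of the others. Per2 had 63.5 against 17.3 CPM and Arntl 76.1 against 27.4 CPM, while Clock had 114.2 against 125.8 CPM and Cry2 25.4 against 54.4 CPM. Dbp was high in each library's share of the cluster, at 568 [347 to 877], 1220.0 [854 to 1689] and 425.2 [333.3 to 534.7] CPM from 20, 36 and 73 UMIs in 2, 2 and 17 cells.

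The suprachiasmatic nucleus is the daily pacemaker, reset by light, that lies in front of the arcuate nucleus. Of the 8 genes listed as its markers, 6 were higher in these 21 cells than in other neuron-like cells. Such genes could form the cluster, so their levels describe it. Avp had 10590 against 118 CPM, Rgs16 740.3 against 13.3, Nms 181.9 against 2.37, Prok2 198.8 against 3.11, Six6 427.2 against 106.7 and Lhx1 114.2 against 28.0 CPM. Vip and Grp, markers of the light-receiving part of that nucleus, had 0 UMIs there. The markers were uneven between the 21 cells. Prok2 was found in 4 of them, with 59.6% of its UMIs in 1 cell, and Nms in 9, with 39.5% in 1 cell. The 2 SC cells had 0 UMIs of Nms, Prok2 and Lhx1, and 1 of them held 99.5% of their Avp UMIs. In the compared classes the summed class average of the 8 markers was 156.7, 130.5 and 151.5 CPM, of which Six6 made up 64.2, 57.5 and 58.9 CPM; Vip was at 0 UMIs in SC.

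The cells of the cluster came as 2, 2 and 17 from the 3 libraries. It held 73 of the 297 Dbp UMIs and 51 of the 175 Nr1d1 UMIs of the 15-day neuron-like cells. Without it neuron-like Dbp was 46.9, 60.2 and 65.0 CPM (15-day log2 ratio 0.47 [0.19 to 0.75]) and Nr1d1 25.1, 24.6 and 36.0 CPM (0.52 [0.14 to 0.91]), so both stayed called with smaller ratios when this cluster alone was left out. Arntl, uncalled with the cluster, was called lower without it (30.8, 29.1 and 20.9 CPM, -0.56 [-0.99 to -0.14]). Over the class average the 15-day contrast was 0.54 without the cluster.

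**Figure D5:**
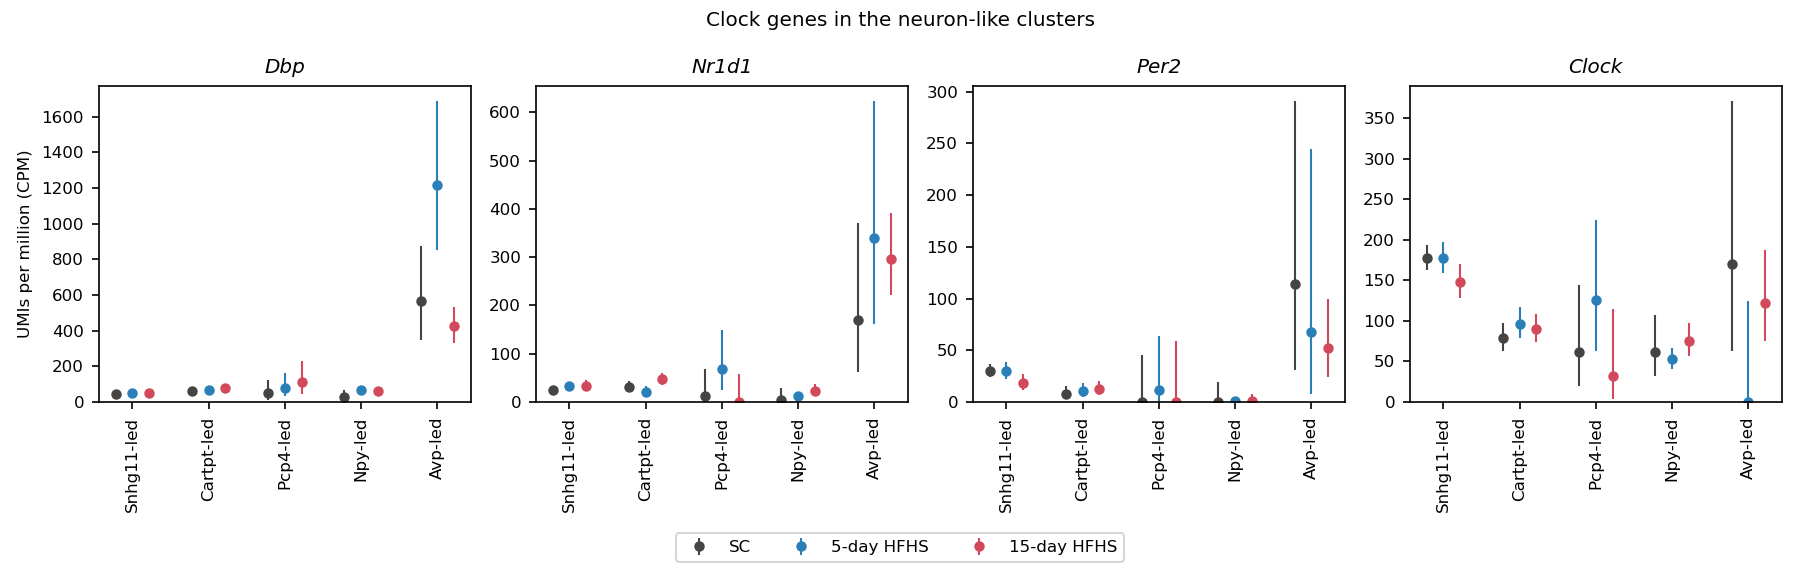
CPM (y axis, from 0) of Dbp, Nr1d1, Per2 and Clock in the 5 neuron-like clusters (x axis, named by the leading gene) of each library, with 95% Poisson intervals. The Avp-led cluster is above the others for Dbp and Nr1d1 in each library and is not set apart for Clock.

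The wider clock machinery was followed in 23 other genes, of which 0 were called over the class average in either HFHS library against SC. Over all genes, 5.56% were called either way at 5 days and 11.8% at 15 days. The median log2 ratio of the 23 was -0.05 at 5 days and -0.01 at 15 days, beside -0.02 and -0.05 over all genes. Among partners of the second loop, Rorb, an activator at RRE sequences, was at 71.4, 73.6 and 86.6 CPM (0.28 [0.19 to 0.36] at 15 days) and Nr1d2, the paralog of Nr1d1, at 40.8, 39.2 and 43.7 CPM. The Dbp relatives Tef and Hlf were at 74.6, 69.0 and 77.7 CPM and 49.9, 42.3 and 52.2 CPM. Npas2, which can stand in for Clock, was at 7.94, 6.78 and 6.13 CPM (-0.37 [-0.87 to 0.13] at 15 days). Between the 15-day and 5-day libraries 1 of 23 was called, beside 10.1% of all genes either way. It was Prkaa2, a catalytic subunit of the energy sensor AMPK, at 13.8 against 10.2 CPM (0.44 [0.13 to 0.75]).

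Acute stimuli can move Per1 apart from the clock, so lists of stimulus genes were read beside it. Over all genes, 5.56% were called either way at 5 days over SC, 11.8% at 15 days over SC and 10.1% between the HFHS libraries. Of 16 immediate-early genes, which answer activation or tissue handling, 0 were called at 5 days over SC, but 14 of 16 had a ratio above 1, with a median log2 ratio of 0.15 against -0.02 over all genes. At 15 days over SC 7 were above and 9 below 1, and 1 was called lower, Ier3 at 69.0, 58.7 and 54.4 CPM. Between the HFHS libraries 14 of 16 were below 1 at 15 days, with a median of -0.14; Atf3 was called higher and Dusp1 and Klf2 lower. Per1 itself was at 0.16 at 5 days over SC and -0.19 between the HFHS libraries. Of 16 genes induced by glucocorticoids, hormones with a daily rhythm of their own, 1 was called higher and 2 lower at 5 days: Arl4d (0.34), and Zbtb16 (-0.46) and Hif3a (-0.45). At 15 days 3 were called higher, the metallothioneins Mt1 (0.41) and Mt2 (0.33) and the lipid droplet gene Plin4 (0.55), and the kinase gene Sgk1 was lower (-0.36). Fkbp5, a classic glucocorticoid target, was at 26.2, 24.9 and 25.9 CPM. Between the HFHS libraries Zbtb16 and Hif3a were higher and Tsc22d3, Sgk1 and Ddit4 lower at 15 days. The part of handling and hormones in the Per1 values was not tested.

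Transcripts of 8 strongly expressed neuropeptides were read as a mark of free RNA in the classes that do not make them. Their sum averaged 225.5, 219.6 and 270.6 CPM over the 9 classes other than neuron-like cells. In neuron-like cells, which make them, it was 3169, 6826 and 4963 CPM. Their part in the clock gene values was not tested; with free RNA taken as 10% of each class sum and subtracted, the contrasts were 0.24, 0.54 and 0.30. The 8 markers of the pars tuberalis, the pituitary tissue around the stalk, summed to 356.2, 332.8 and 494.1 CPM, with 2, 2 and 0 of the 8 at 0 UMIs. Of these sums Timp3 made up 305.6, 288.1 and 312.5 CPM, Chga 37.8, 34.1 and 111.9 CPM and Cga 0, 0 and 48.4 CPM.

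Across the 30 pairs of class and library, after centring each class, the genes most like Dbp among 11734 were Metap2 (Pearson r 0.80), Polr2i (0.79), Lsm5 (0.78), Zmat2 (0.78) and Snrpd3 (0.78). The 3 most like Arntl were Pdgfc (0.76), Cog7 (0.75) and Blzf1 (0.72). No member was among them; Dbp had r of -0.18 with Arntl and 0.35 with Nr1d1. The 30 points share 3 libraries and their depths, and the values describe likeness only.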

How the data were processed

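Cells of 3 pooled libraries were profiled on the 10x Chromium 3′ v3.1 platform. The authors deposited raw UMI counts per gene and cell barcode, made with Cell Ranger on GRCm38 per the submitters' processing notes; the file headers give software version 3.1.0. Whether counting used the strand is not given in these sources. Barcodes under 500 genes or above 20% mitochondrial UMIs were dropped, and the highest Scrublet doublet scores were removed at 0.8% per 1000 barcodes, since the automatic call marked 0% in SC. Cells were clustered in Scanpy 1.11.5 (3000 variable genes without clock genes, 40 components, 15 neighbours, Leiden resolution 1) and named by at least 3 markers among the 50 leading genes, which named 29 of 35 clusters. UMIs were summed per class and library to CPM, with exact Poisson, binomial or delta-method 95% intervals. Depth limits precision in small classes: pericyte-like cells numbered 135, 110 and 116. The fold rule over the class average was tested on simulated counts for the 5-day library over SC, and the other steps were not. edgeR 4.0.16 gave TMM factors only. The text names every member, called genes of the other lists, and the 5 genes most like Dbp and Arntl, of which some for Arntl are not reported here. Members and lists were chosen with earlier results of these data known.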

Additional observations from a re-analysis of the deposited data

Results flagged for a closer look

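These log2 ratios of 1 gene went opposite ways in different cell classes, each past the fold rule; the differences between classes were not tested. Cry2 at 15 days over SC was 0.49 in oligodendrocyte-like and -0.62 in neuron-like cells. Dbp at 5 days over SC was 0.53 in astrocyte-like, 0.41 in neuron-like and -0.66 in endothelial-like cells. Per3 at 15 days over SC was 0.42 in ependymal-like, 0.55 in endothelial-like, 0.61 in COP-like and -0.42 in neuron-like cells. Some of these values did not hold under alternative runs. Cry2 was 0.12 in oligodendrocyte-like cells when thinned. Dbp was 0.31 in endothelial-like cells with equal cell weights and 0.20 in neuron-like cells at no more than 10% mitochondrial UMIs. Per3 was 0.21 in ependymal-like cells with a fixed mix of clusters and 0.01 in neuron-like cells with equal cell weights.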

How the results depend on the processing

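No paired analysis was possible because each diet had 1 library. The sets' contrast kept its sign under each alternative run, from 0.12 to 0.40 at 5 days over SC, 0.42 to 0.86 at 15 days over SC and 0.14 to 0.46 between the HFHS libraries. It moved most at 0.40 and 0.86 with cells thinned to 1000 UMIs, at 0.71 for Dbp, Nr1d1 and Per3 against Arntl and Nfil3, and at 0.14 with every cell weighted equally. Leaving out Nfil3, the Avp-led cluster or cells with shared barcodes was chosen after seeing the data. Members called at 5 days were 2 with equal cell weights and 0 thinned, at 15 days 4 thinned, and between HFHS libraries 2 at 10% mitochondrial UMIs and 0 with equal weights, a fixed mix of clusters or classes weighted by cells. Genes called in all were 1354 at 5 days with each library clustered alone and 1157 at 15 days thinned. Of 43 called class ratios, 19 kept the fold under each alternative run and 24 fell under the limit in at least 1. Of 30 class-average ratios of members, 9 that were not called changed sign, the farthest being Per2 at 15 days over SC (0.61, thinned), and 0 of those called. Among called class ratios, those that changed sign were Dbp (0.31, equal weights) and Nr1d1 (1.11, thinned) in endothelial-like and Per2 (0.20, fixed mix) in neuron-like cells at 5 days. At 15 days over SC they were Nfil3 (0.32, equal weights, and 0.0695, thinned) and Nr1d1 (-0.17, thinned) in tanycyte-like, Per3 in neuron-like (0.0148, equal weights) and Nfil3 in ependymal-like cells (0.0589, fixed mix). Between HFHS libraries they were Cry1 in tanycyte-like (0.15, equal weights, and 0.83, thinned), Nr1d1 in neuron-like (-0.00671, equal weights, and -0.49, fixed mix) and Per3 in oligodendrocyte-like cells (-0.72, thinned). Thinned values come from 1 random draw, and within a class they rest on few UMIs for scarce genes. The cause of these changes was not tested.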

Other observations

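Barcodes outside the compared classes also carried clock transcripts. In barcodes over 20% mitochondrial UMIs the ratio of Dbp to Arntl UMIs was 1.35 [1.09 to 1.67], 1.05 [0.84 to 1.31] and 1.60 [1.23 to 2.08], with overlapping SC and 15-day intervals. In removed doublets it was 1.35, 1.90 and 1.90. Clusters 33 and 34, led by Tac2 and Tagln with Cga among their leading genes, held 80 cells of the 15-day library and were left unnamed. They had 100 Dbp and 8 Arntl UMIs, outside every comparison above.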
